A study of Mus musculus with 21 samples.

Results

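The genes of the postsynaptic side of the neuromuscular junction were followed in whole quadriceps muscle of adult male wildtype C57/Bl6 mice. The 10 members were taken by symbol from the 53738 gene symbols of the matrix of TPM values, which give each gene's length-corrected share of a library's transcripts, and every one of them was found. They are the acetylcholine receptor subunit genes Chrna1, Chrnb1, Chrnd and Chrne, the receptor-clustering genes Musk, Dok7, Lrp4 and Rapsn, and the genes of the cholinesterase of the synaptic cleft, Ache and Colq. The matrix held 21 libraries, 3 in each of 7 groups. Sedentary mice had neither trained nor exercised, and untrained mice ran a single exhaustive treadmill bout with no training before it. Trained mice ran the same kind of bout after 12 weeks of voluntary wheel running, and the muscle of both exercised arms was collected 0, 6 or 72 h after it. Trained muscle without the bout was not analysed here, so that training and the response of trained muscle to exercise cannot be told apart. The labels do not tell whether the 3 libraries of a group came from separate animals, and the p-values then measure the spread between these libraries, which may be technical.

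At this synapse the motor nerve releases acetylcholine, which opens a receptor of alpha, beta, delta and epsilon subunits packed into the crests of the muscle membrane. Agrin from the nerve binds LRP4, which switches on the receptor tyrosine kinase MuSK. DOK7 is the adaptor that activates MuSK from inside the fibre, and rapsyn, encoded by Rapsn, holds the receptors in clusters. The enzyme acetylcholinesterase ends each signal, and the collagen-like tail ColQ anchors it in the synaptic basal lamina. In a muscle fibre these genes are transcribed mostly by the few nuclei under the nerve ending, and whole-muscle RNA averages them with all the other nuclei. In such bulk samples, fewer synaptic nuclei and less RNA per nucleus cannot be told apart.

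TPM divides by transcript length, so that levels of different genes can be compared, but it keeps no read counts and the depth behind each value is unknown. The columns of the first untrained 0 h and the first trained 0 h library were identical in every gene, which left 20 distinct libraries. Tests at 0 h are therefore given both as deposited and without this shared library, which leaves 2 libraries in each 0 h group. As deposited, the comparison of trained with untrained muscle at 0 h holds this library in both arms. Myofibre markers summed to between 36171 and 51444 TPM in all libraries. The motor neuron genes Slc18a3 and Mnx1 were listed at 0 throughout. Genes of the mitochondrial genome took 42.2% to 46.9% of the TPM in sedentary libraries, against 37.7% to 40.6% at 0 h. They took 45.7% to 48.0% in trained muscle at 6 and 72 h. In untrained muscle they took 40.6% to 43.7% at 6 h and 42.3% to 44.3% at 72 h, below every trained library at these times. A rescaling without these genes and the 10 highest genes changed no member's call.

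The sequences just before the transcription starts are shown for Musk, Dok7, Chrnb1 and Ache, chosen because the results turn on these 4 genes. Each holds the 250 bases before the start of the gene's canonical transcript (GENCODE M39) in the mouse reference genome GRCm39, read 5′ to 3′ on the strand of the gene. Capitals mark the E-box, CANNTG, the letters bound by myogenic factors such as MyoD and myogenin. The Musk stretch is chr4:58285681-58285930 on the plus strand, that of Dok7 is chr5:35213636-35213885 on the plus strand, that of Chrnb1 is chr11:69686774-69687023 on the minus strand and that of Ache is chr5:137286055-137286304 on the plus strand. The Ache stretch lies within the annotated span of the gene, which begins upstream of its canonical start.
Musk: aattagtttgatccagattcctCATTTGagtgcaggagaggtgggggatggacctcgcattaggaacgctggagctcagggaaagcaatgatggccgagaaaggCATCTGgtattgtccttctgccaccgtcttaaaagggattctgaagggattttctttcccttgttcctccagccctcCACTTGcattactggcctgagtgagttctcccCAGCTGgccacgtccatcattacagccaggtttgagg
Dok7: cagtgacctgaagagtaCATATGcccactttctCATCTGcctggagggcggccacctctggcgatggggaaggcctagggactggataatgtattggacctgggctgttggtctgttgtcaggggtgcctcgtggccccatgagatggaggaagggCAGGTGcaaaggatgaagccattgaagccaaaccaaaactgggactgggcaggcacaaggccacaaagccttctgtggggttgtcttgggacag
Chrnb1: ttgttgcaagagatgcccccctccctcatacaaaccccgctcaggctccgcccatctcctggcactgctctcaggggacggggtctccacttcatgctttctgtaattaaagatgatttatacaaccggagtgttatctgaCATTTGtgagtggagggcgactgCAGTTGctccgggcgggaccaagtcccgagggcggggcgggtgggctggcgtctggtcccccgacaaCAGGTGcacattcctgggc
Ache: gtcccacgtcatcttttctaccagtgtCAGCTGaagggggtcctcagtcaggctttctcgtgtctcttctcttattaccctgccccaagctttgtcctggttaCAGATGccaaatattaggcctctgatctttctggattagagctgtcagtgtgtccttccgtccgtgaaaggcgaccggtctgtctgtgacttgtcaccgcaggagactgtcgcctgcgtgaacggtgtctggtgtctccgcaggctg
Searched on both strands, Musk held 4 E-boxes, Dok7 and Chrnb1 held 3 each and Ache held 2. An E-box occurred in 64.8% of 21757 protein-coding promoters of the same length and in 9 of the 10 members, Lrp4 being the one without. The E-box form CAGCTG, which is a subset of CANNTG, occurred in 11.9% of promoters and in Chrne, Musk and Ache, where the Musk copy began 37 bases before the start. The N-box CCGGAA, known from synapse-specific transcription, occurred in 12.4% of promoters and in Chrnd and Lrp4. The AP-1 letters TGANTCA occurred in 6.18% of promoters and, of the members, in Chrna1. These matches describe the letters of the windows and show no binding.

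The members spanned a wide range of levels. Over the 20 distinct libraries the median level was 13.9 TPM for Rapsn, 13.5 for Ache, 11.0 for Chrnb1, 5.43 for Chrne, 3.61 for Dok7, 2.61 for Musk, 1.93 for Colq, 1.80 for Chrna1, 1.02 for Lrp4 and 0.644 for Chrnd. Rapsn was the steadiest, with its highest library 1.49 times its lowest, and Musk varied most, by 6.36 times. The ranges of all neighbours in this order overlapped, those of Chrnb1 and Chrne only between 6.83 and 7.07 TPM. Chrnd had a mean of 0.623 TPM and did not reach the minimum mean of 1 TPM, so 9 of the 10 members were tested.

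**Figure D1:**
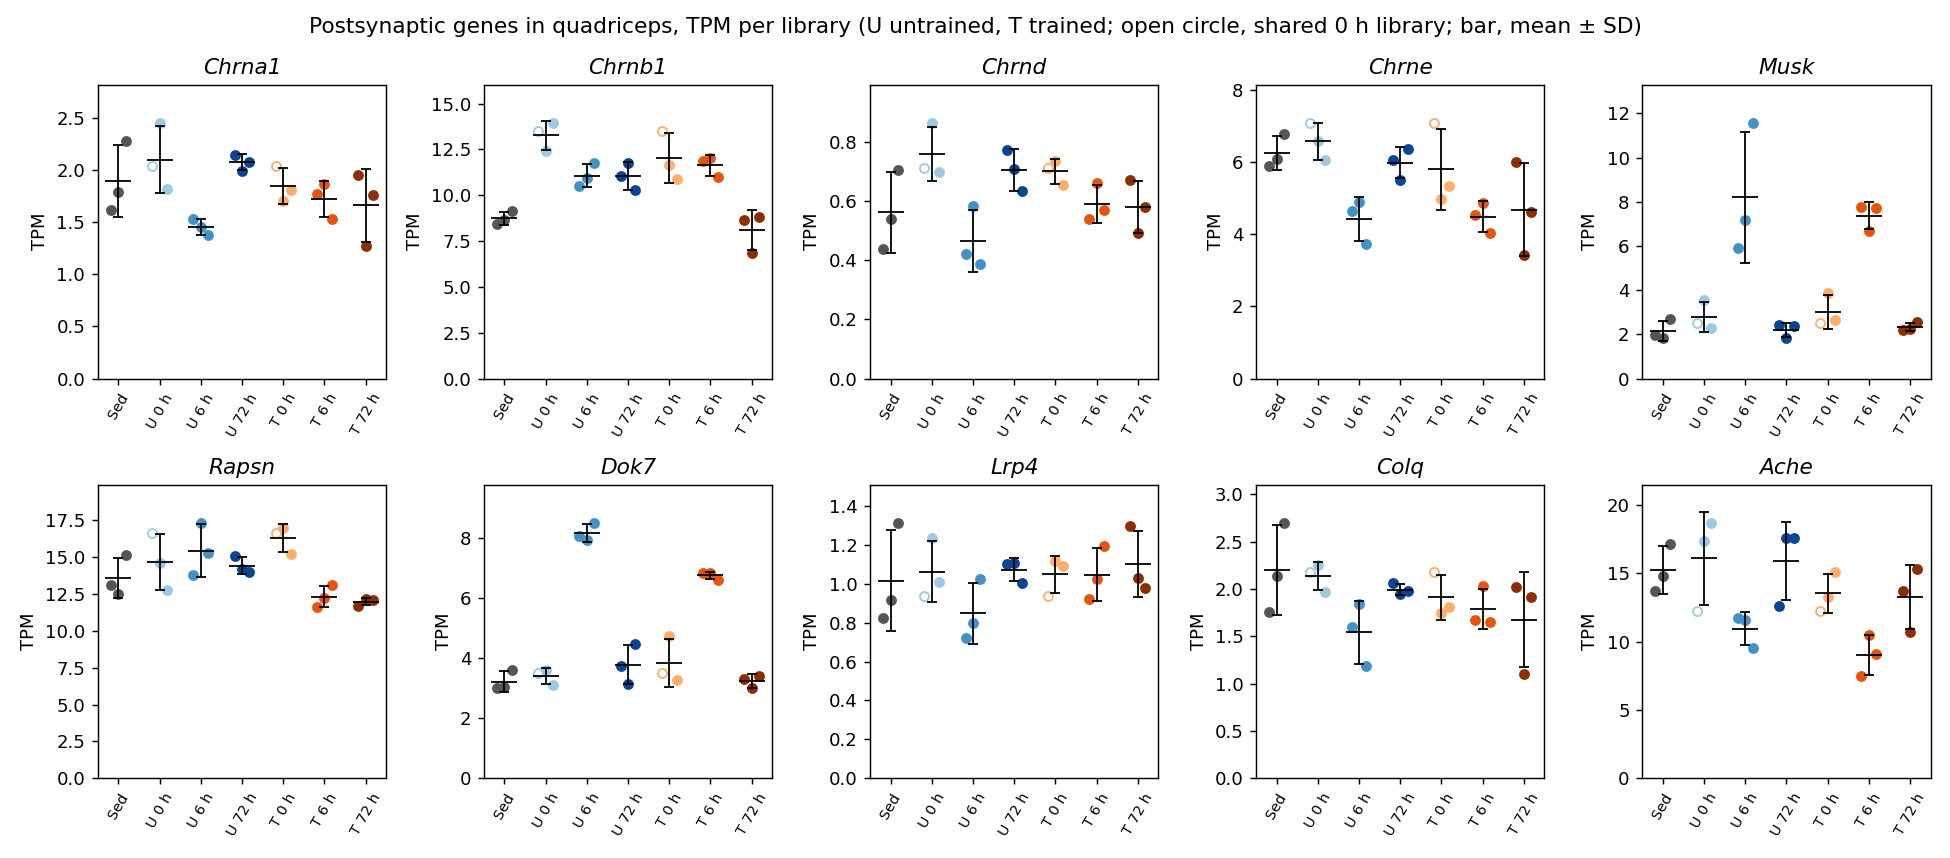
Levels of the 10 members in TPM (vertical axes, from 0) in each of the 7 groups (horizontal axes). Each circle is 1 library, the open circle is the library listed in both 0 h groups, and the bars give the group mean ± SD over the 3 deposited columns. Musk and Dok7 stood apart at 6 h, with all 6 libraries above those of the other groups, at 5.89 to 11.6 TPM and at 6.62 to 8.51 TPM.

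The groups collected after exercise were each set against sedentary muscle, and the trained arm was set against the untrained arm at the same time. The comparison with sedentary muscle asks how the bout changed untrained muscle, while for trained muscle it takes training and the bout together. The tests used limma on log2(TPM + 0.5) with Benjamini-Hochberg adjustment over all 11819 tested genes, and a call required an adjusted p below 0.05 together with a change of at least 1.5-fold on that scale in either direction. The 6 comparisons with sedentary muscle share the same 3 sedentary libraries. At 6 h, 2 of the 9 tested members rose in untrained muscle, Musk and Dok7, where 4.42% of all tested genes were called. At an unadjusted p under 0.05 there were 7 members there, Musk, Dok7 and Chrnb1 higher and Chrna1, Chrne, Colq and Ache lower. Over all tested genes and the 9 comparisons together, 16.6% of tests had an unadjusted p under 0.05. That share is not given here for single comparisons. In trained muscle at 6 h the same members, Musk and Dok7, rose and Ache fell, where 3.85% of all genes were called. At an unadjusted p under 0.05 there were 5 members, Chrnb1 and Chrne besides these. At 0 h no member was called by limma in untrained muscle (3.59% of all genes called, 1 member at an unadjusted p under 0.05) or in trained muscle (3.74% called, 2 members at an unadjusted p under 0.05). At 72 h none was called in untrained muscle (0.00846% of all genes called, 1 member at an unadjusted p under 0.05) or in trained muscle (0.169% called, 1 member at an unadjusted p under 0.05). Without the shared library the member counts were the same in each of these comparisons.

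Between trained and untrained muscle limma called no member. The background was 0% of all genes called at 0 h, 2.01% at 6 h and 0.245% at 72 h. At an unadjusted p under 0.05 there were 0 members at 0 h, with or without the shared library, 2 at 6 h (Rapsn and Dok7) and 3 at 72 h (Chrnb1, Chrne and Rapsn). Without the shared library 1 remained at 6 h, Rapsn, and the same 3 at 72 h. The median log2 difference of the 9 members from sedentary was -0.16 in untrained and -0.10 in trained muscle at 6 h, beside 0.01 and -0.01 over all tested genes. At 0 h these medians were 0.07 and 0.04 for the members and 0.10 and 0.13 for all genes, and without the shared library 0.11 and 0.09 for the members and 0.08 and 0.12 for all genes. A moderated F test over the 7 groups, which asks whether a gene differed between any of them, passed for 6 of the 9 tested members at an adjusted p below 0.05, against 34.6% of all tested genes. These were Dok7 (adjusted p = 2.4e-06), Musk (2.09e-05), Chrnb1 (0.000332), Ache (0.0149), Rapsn (0.0154) and Chrne (0.0332), and without the shared library Chrne no longer passed, at 0.059.

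**Figure D2:**
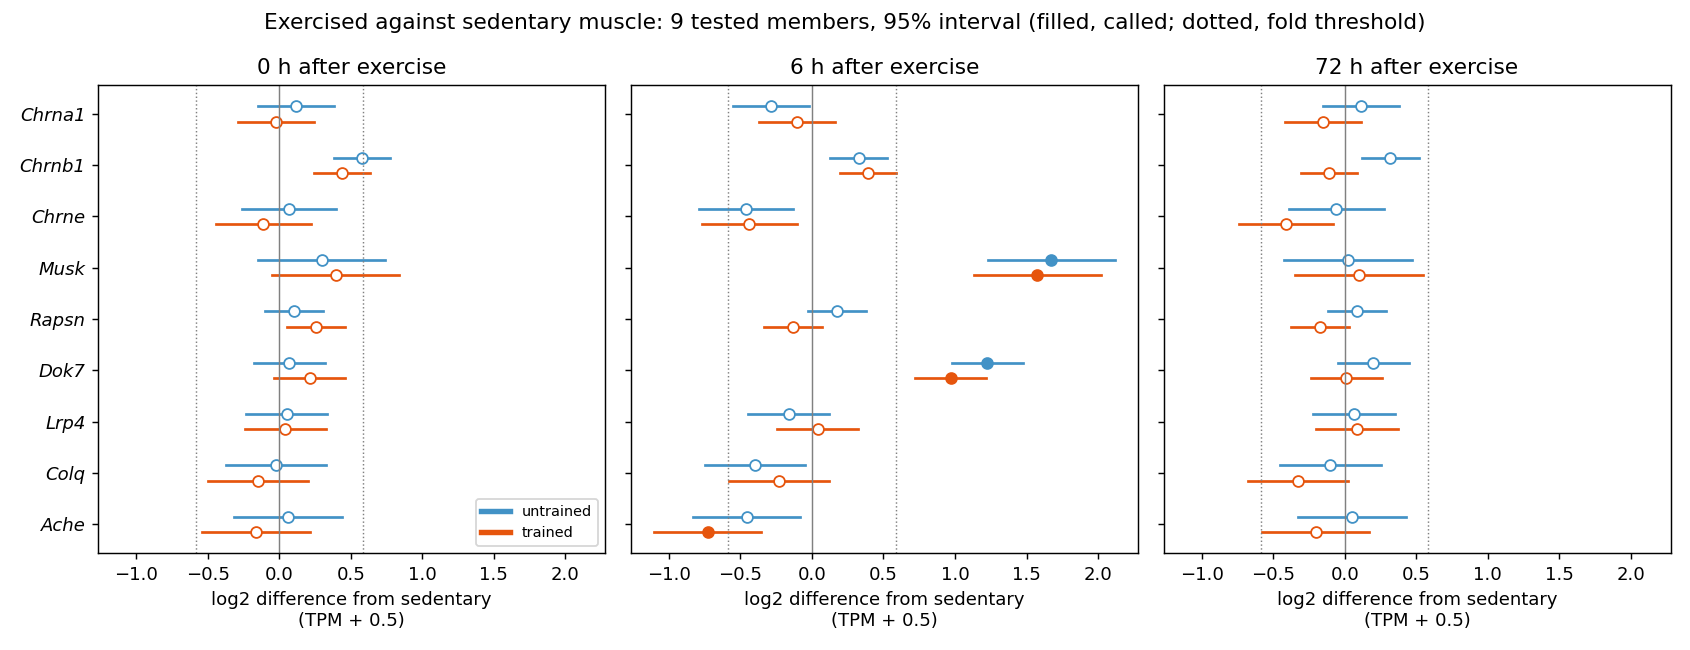
Log2 difference of TPM + 0.5 from sedentary muscle (horizontal axis) for the 9 tested members at 0, 6 and 72 h after exercise. Circles are limma estimates in untrained (blue) and trained (orange) muscle, lines are 95% intervals, filled circles were called and dotted lines mark the threshold of 1.5-fold. The called points all stand at 6 h, Musk at 1.67 and 1.58, Dok7 at 1.23 and 0.97, and Ache at -0.73 in trained muscle.

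Musk, the kinase at the centre of receptor clustering, had the largest change of the members. It lies on chromosome 4 at 58285931 to 58377847 on the plus strand. Sedentary libraries had 1.98, 1.82 and 2.69 TPM. The untrained libraries at 6 h reached 5.89, 7.20 and 11.6 TPM. The trained ones at that time had 7.77, 6.66 and 7.70 TPM. All 6 libraries at 6 h lay above every library of the other 5 groups, whose highest was 3.89 TPM in trained muscle at 0 h.

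The Musk group means rose from 2.16 ± 0.46 TPM (SD, n = 3) in sedentary muscle to 8.22 ± 2.97 in untrained and 7.38 ± 0.62 in trained muscle at 6 h. On the log2(TPM + 0.5) scale the untrained difference was 1.67 (SE 0.21, limma adjusted p = 7.39e-05), a 3.19-fold change, and the trained difference was 1.58 (SE 0.21, limma adjusted p = 0.000251), a 2.98-fold change. The untrained call was lost by a narrow margin, at an adjusted p of 0.0501, when only the compared groups entered the model. Trained minus untrained muscle at 6 h was -0.10 (95% interval -0.54 to 0.35, adjusted p = 0.87). At 0 h the levels were 2.51, 3.56 and 2.28 TPM in untrained and 2.51, 3.89 and 2.66 TPM in trained muscle, of which 2.51 is the shared library, and both groups overlapped with sedentary muscle. The 0 h differences were 0.30 and 0.39 as deposited, and 0.35 and 0.50 without the shared library, with adjusted p of 0.411, 0.233, 0.491 and 0.241 in that order. At 72 h the 6 libraries lay between 1.82 and 2.56 TPM, within the sedentary range apart from 1 untrained library marginally under it.

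Dok7, the adaptor that activates MuSK, lies on chromosome 5 at 35213886 to 35246018 on the plus strand. Its sedentary libraries had 3.01, 3.04 and 3.61 TPM. The untrained libraries at 6 h had 8.08, 7.94 and 8.51 TPM, and the trained libraries 6.83, 6.83 and 6.62 TPM. The groups at 6 h overlapped with none of the others, the next highest library being a trained one at 0 h with 4.74 TPM.

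Dok7 rose by 1.23 on the log2 scale in untrained muscle at 6 h (SE 0.12, limma adjusted p = 5.02e-06), which was 2.34-fold. It rose by 0.97 in trained muscle (SE 0.12, limma adjusted p = 0.000114), which was 1.96-fold. All 3 trained libraries lay below all 3 untrained libraries, and the difference between them was -0.26 (95% interval -0.51 to -0.01, or -0.52 to 0.01 without the shared library). This difference did not pass the correction over all genes (limma adjusted p = 0.258), nor did it in any of the alternatives tried. At 0 h the differences from sedentary muscle were 0.07 and 0.21 (adjusted p = 0.756 and 0.251), and 0.05 and 0.26 without the shared library (adjusted p = 0.888 and 0.273). At 72 h the levels of 2.99 to 4.47 TPM overlapped with sedentary muscle.

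Lrp4, the agrin receptor that acts through MuSK, did not follow them. Its 20 libraries lay between 0.719 and 1.31 TPM, and all its group means lay between 0.847 and 1.10 TPM. At 6 h it differed from sedentary muscle by -0.16 in untrained (95% interval -0.45 to 0.12) and by 0.04 in trained muscle (95% interval -0.25 to 0.32). With an F test adjusted p of 0.67 it was the member with the least evidence of a difference between groups.

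Rapsn, which anchors the receptor clusters, is on chromosome 2 at 90865892 to 90876082. Its libraries had 13.1, 12.5 and 15.1 TPM in sedentary muscle and 16.6, 17.0 and 15.2 TPM in trained muscle at 0 h, the first of the latter being the shared library. The 3 trained libraries at 0 h lay above the sedentary ones, a log2 difference of 0.26 (limma adjusted p = 0.0994), or 0.24 without the shared library (adjusted p = 0.175). At 6 h the untrained libraries had 13.8, 17.3 and 15.2 TPM and the trained 11.6, 12.2 and 13.1 TPM. Trained muscle thus lay below untrained at 6 h in 3 of 3 libraries, by -0.31 on the log2 scale (SE 0.10, limma adjusted p = 0.0789). At 72 h trained libraries had 11.7, 12.1 and 12.1 TPM, all below the sedentary and the untrained ones, and these differences of -0.17 and -0.26 had adjusted p of 0.512 and 0.225. Rapsn passed the F test and was called in no single comparison. The adjusted p of the difference between the arms at 6 h was 0.0403 with median-of-ratios scaling and 0.0275 without the first untrained 6 h library, with the values still under the fold threshold.

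Of the receptor subunits, Chrnb1, the beta subunit, showed a pattern of its own. The gene is on chromosome 11 at 69674860 to 69686773 on the minus strand. It had 8.41, 8.67 and 9.11 TPM in sedentary muscle. Right after the bout the untrained libraries had 13.5, 12.4 and 13.9 TPM and the trained ones 13.5, 11.7 and 10.9 TPM, with 13.5 the shared library. The 0 h libraries of both arms all lay above the sedentary ones.

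The untrained difference of Chrnb1 at 0 h was 0.58 on the log2 scale (SE 0.09, limma adjusted p = 0.000749), a 1.49-fold change and just under the fold threshold, and 0.56 without the shared library (adjusted p = 0.00314). The trained difference was 0.44 (SE 0.09, adjusted p = 0.00717), and 0.35 without the shared library, where it missed the adjusted p threshold at 0.0508. Taken relative to the median of all genes, which was itself raised at 0 h, the differences were 0.47 and 0.30, and 0.48 and 0.23 without the shared library. With median-of-ratios scaling the untrained difference was 0.48 (adjusted p = 0.00444) and the trained one 0.31 (adjusted p = 0.0766). The same scaling without the shared library gave 0.48 (adjusted p = 0.0108) and 0.22 (adjusted p = 0.312). At 6 h Chrnb1 had 10.5, 10.9 and 11.8 TPM in untrained and 11.9, 12.0 and 11.0 TPM in trained muscle, again above every sedentary library. These differences were 0.33 (adjusted p = 0.0364) and 0.39 (adjusted p = 0.0126), smaller than the fold threshold.

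At 72 h Chrnb1 parted between the arms. Untrained libraries still had 11.0, 11.8 and 10.3 TPM, and trained libraries had 8.66, 6.83 and 8.79 TPM. All untrained libraries lay above the sedentary range, whereas the trained ones overlapped with it. Neither difference from sedentary muscle passed the correction, at 0.32 in untrained (limma adjusted p = 0.663) and -0.11 in trained muscle (adjusted p = 0.693). The trained minus untrained difference was -0.43 (SE 0.09, limma adjusted p = 0.0582), and 3 of 3 trained libraries lay below the untrained. Without the shared library its adjusted p was 0.0381, with the value still under the fold threshold, and after median-of-ratios scaling it was 0.143.

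Chrne, the epsilon subunit that defines the adult receptor, lay lower at 6 h. It had 5.89, 6.08 and 6.77 TPM in sedentary muscle, 4.65, 4.88 and 3.72 TPM in untrained muscle at 6 h and 4.54, 4.88 and 4.04 TPM in trained muscle at 6 h. All 6 libraries at 6 h lay below all 3 sedentary ones. The log2 differences of -0.46 and -0.44 (SE 0.16 each) did not pass the correction, with limma adjusted p of 0.0782 and 0.0896. After rescaling without mitochondrial genome genes and the 10 highest genes the untrained difference was -0.55 (adjusted p = 0.028), still under the fold threshold. At 72 h the trained libraries were spread from 3.41 to 6.00 TPM and differed from sedentary muscle by -0.41 (adjusted p = 0.314). At 0 h the differences were 0.07 and -0.11, and 0.02 and -0.25 without the shared library, and none passed.

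Chrna1, the alpha subunit that binds acetylcholine, had 1.62, 1.80 and 2.29 TPM in sedentary muscle and 1.53, 1.46 and 1.38 TPM in untrained muscle at 6 h. These untrained libraries were the lowest group of Chrna1 and all lay below the sedentary range, with a log2 difference of -0.28 (limma adjusted p = 0.193). In trained muscle at 6 h it had 1.78, 1.86 and 1.53 TPM, overlapping with sedentary muscle. Chrnd, the delta subunit, ranged from 0.386 to 0.864 TPM and in a fit without the minimum level was not called in any of the 9 comparisons, its smallest adjusted p being 0.272 in untrained muscle at 0 h, or 0.365 without the shared library. Chrng, which encodes the gamma subunit that embryonic and denervated muscle uses in place of epsilon, lay between 0.0097 and 0.315 TPM in all libraries, far under the minimum for a test. Its sedentary range was 0.0235 to 0.0412 TPM. Untrained libraries had 0.0123 to 0.0171 TPM at 6 h and 0.0097 to 0.144 TPM at 72 h, and trained libraries 0.0628 to 0.315 TPM at 6 h and 0.0776 to 0.136 TPM at 72 h.

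The ratios between subunit levels are given as a description and were not tested. Per length, Chrne was 2.56 to 3.64 times Chrna1 in the 20 libraries, with a median of 2.94. The ratio of Chrnb1 to Chrna1 ranged more widely, from 3.99 to 8.52. It averaged 4.67 ± 0.62 in sedentary muscle, where the highest library had 5.20. At 0 h it was already 6.45 ± 1.31 in untrained and 6.51 ± 0.42 in trained muscle, with ranges of 5.06 to 7.66 and 6.04 to 6.85 that are the same without the shared library. At 6 h it was 7.63 ± 0.84 in untrained and 6.77 ± 0.37 in trained muscle. All 6 libraries at 6 h and all trained ones at 0 h lay above the sedentary ones, and the untrained ones at 0 h overlapped with them. By 72 h it was 5.32 ± 0.51 in untrained and 4.93 ± 0.47 in trained muscle, overlapping with sedentary muscle.

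Ache, the gene of acetylcholinesterase, was the only member that fell past the thresholds, and only in trained muscle at 6 h. It lies on chromosome 5 at 137285781 to 137292728 on the plus strand. Sedentary libraries had 13.7, 14.8 and 17.2 TPM. At 6 h it had 11.7, 11.6 and 9.54 TPM in untrained and 7.51, 10.5 and 9.10 TPM in trained muscle. All 6 libraries at 6 h lay below the sedentary ones, and the untrained and trained ranges overlapped.

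The trained difference of Ache was -0.73 on the log2 scale (SE 0.18, limma adjusted p = 0.0149), or 0.603-fold, and the untrained difference was -0.46 (adjusted p = 0.131). The difference between the arms was -0.27 (95% interval -0.65 to 0.10, adjusted p = 0.449), so that a larger fall in trained muscle was not shown. The trained call rested on single libraries. It was lost without the third sedentary library (-0.64, adjusted p = 0.0607), without the first trained 6 h library (-0.61, adjusted p = 0.0752), and with only the compared groups in the model (adjusted p = 0.0654). At 0 h Ache differed from sedentary muscle by 0.06 and -0.16, and by 0.24 and -0.10 without the shared library. At 72 h its levels of 10.7 to 17.6 TPM overlapped with sedentary muscle.

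Colq, the anchor of the enzyme, had 1.76, 2.14 and 2.70 TPM in sedentary muscle and 1.60, 1.85 and 1.18 TPM in untrained muscle at 6 h, with overlap. The log2 difference was -0.40 there (limma adjusted p = 0.159) and -0.23 in trained muscle at 6 h (adjusted p = 0.432). Over all 20 libraries Colq lay between 1.10 and 2.70 TPM, and it did not pass the F test (adjusted p = 0.292).

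The members fell into sets that moved together across the 20 distinct libraries, given as a description of libraries that share groups and scaling. Musk and Dok7 had a Pearson r of 0.95 on the log2 scale, and Musk and Ache one of -0.74. Chrna1, Chrne and Colq formed another set, with r of 0.85 for Chrna1 with Chrne, 0.86 for Chrna1 with Colq and 0.88 for Chrne with Colq. Chrnb1 had an r of at most 0.41 with any other member. Musk and Dok7 thus fall into 2 clouds, the 6 h libraries and the rest, whereas Chrne and Colq are spread along 1 band. In Chrne the 6 h libraries, at 3.72 to 4.88 TPM, lay below all others except trained 72 h ones at 3.41 and 4.62 TPM. In Colq the groups mixed.

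**Figure D3:**
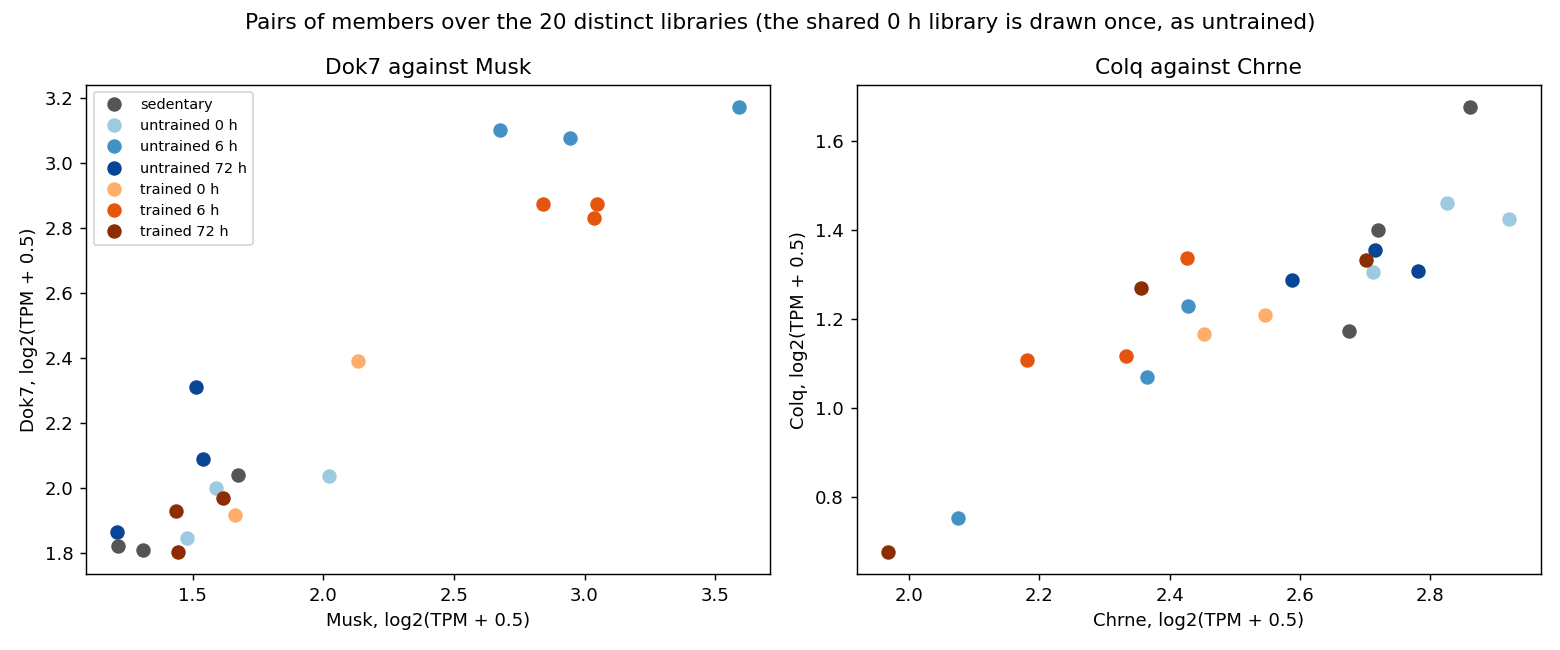
Dok7 against Musk (left) and Colq against Chrne (right), both axes in log2(TPM + 0.5), with 1 point for each of the 20 distinct libraries coloured by group. In the left panel the 6 libraries at 6 h stand apart at the upper right (r = 0.95 over all points), and in the right panel the points form 1 band (r = 0.88).

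Among all tested genes, the 3 whose log2 levels were most like Musk were Txnrd1 (r = 0.96), Sbno2 (0.96) and Cntfr (0.95). Txnrd1, a thioredoxin reductase gene, had 15.9 ± 1.05 TPM in sedentary muscle, 34.4 ± 7.21 in untrained and 27.2 ± 4.25 in trained muscle at 6 h. Those most like Dok7 included Musk (0.95) and 6430548M08Rik (0.94). For Chrnb1 they were Nfkb2 (0.88), Alkbh6 (0.86) and Gm17638 (0.86), and for Chrne they were Ufsp1 (0.90), Colq (0.88) and Tbc1d10c (0.85). Ufsp1 had 7.86 ± 0.79 TPM in sedentary muscle and 6.74 ± 0.84 and 6.01 ± 0.56 TPM in untrained and trained muscle at 6 h. For Rapsn they were Mtss2 (0.90), 9530068E07Rik (0.89) and Hdgf (0.87), and for Ache they were 6330403L08Rik (0.88), Osbpl6 (0.86) and Fut10 (0.86).

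The regulators of receptor transcription changed singly. Of 9 such genes 7 were tested, and over the 9 comparisons there were 3 calls upward and 2 downward in 63 tests (7.94%). Over all tested genes and the same 9 comparisons 2% of the tests were called, and 16.6% had an unadjusted p under 0.05. This list and those that follow were chosen with earlier results of these data known, so their shares of calls only describe them. Myog, the myogenic factor myogenin, rose at 0 h, from 0.724 to 1.27 TPM in sedentary to 2.84 to 6.18 in untrained and 3.91 to 7.39 TPM in trained libraries. The log2 differences were 1.72 (adjusted p = 0.000555) and 2.11 (adjusted p = 7.38e-05), and without the shared library 1.47 (adjusted p = 0.00648) and 2.05 (adjusted p = 0.000418). Myod1, the related factor MyoD, rose in untrained muscle at 6 h, from 2.80 to 6.21 TPM in sedentary to 8.73 to 15.8 TPM, by 1.49 (adjusted p = 0.00552). Hdac9, a histone deacetylase known to repress receptor genes in innervated muscle, fell by 0.80 in trained muscle at 6 h (adjusted p = 0.00586), from 0.998 to 1.33 TPM to 0.426 to 0.494 TPM. At 6 h Hdac9 was also lower in the trained than in the untrained arm, with a log2 difference of -0.63 (adjusted p = 0.0422).

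Of 13 genes of agrin, neuregulin and MuSK downstream signalling, 8 were tested and limma called none in any of the 9 comparisons, with 19 of 72 tests at an unadjusted p under 0.05, for which the share over all genes is given above. Agrn, the gene of agrin, had 1.40 to 2.36 TPM in all libraries. Nrg1, the gene of neuregulin, was at most 0.0107 TPM. The 5 glycosylation genes in which mutations cause congenital myasthenia were all tested and limma called none, with 3 of 45 tests at an unadjusted p under 0.05. Of 12 genes of the synaptic basal lamina and dystrophin complex 9 were tested and there was 1 call in 81 tests, or 2 without the shared library. The 1 as deposited was Nid2, the basement membrane protein nidogen, which fell by 0.67 in trained muscle at 6 h (adjusted p = 0.0406), from 2.28 to 2.48 TPM in sedentary to 1.01 to 1.73 TPM.

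Of 8 other endplate genes 6 were tested and 4 calls were made in 54 tests (7.41%, beside 2% over all genes), all upward and from 2 genes. Prima1, whose product anchors acetylcholinesterase in membranes as ColQ does in the basal lamina, rose at 6 h. Its libraries went from 0.719 to 1.14 TPM in sedentary to 1.56 to 2.49 TPM in untrained and 1.63 to 2.63 TPM in trained muscle, with log2 differences of 0.87 (adjusted p = 0.0117) and 0.96 (adjusted p = 0.0067). Nes, the intermediate filament nestin, rose at 0 h by 0.89 in untrained (adjusted p = 4.11e-05) and 0.82 in trained muscle (adjusted p = 9.15e-05), and without the shared library by 0.96 and 0.86 (adjusted p = 0.000181 and 0.000461). Nes stood at 3.47 to 4.69 TPM in sedentary and 7.01 to 8.86 TPM in the 0 h libraries.

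Of 11 genes of the denervation response 5 were tested, with 8 calls in 45 tests (17.8%), all upward and all from 3 genes, beside 2% over all genes. Besides Myog, whose calls are also counted with the regulators above, they were Cdkn1a, a cell cycle inhibitor, and Gadd45a, a stress gene that denervation raises. Cdkn1a rose by 2.15 and 2.07 at 0 h in untrained and trained muscle (adjusted p = 2.52e-05 and 3.51e-05), by 1.91 and 1.80 without the shared library, and by 1.14 and 1.39 at 6 h (adjusted p = 0.00694 and 0.00182). Gadd45a rose by 0.76 in untrained (adjusted p = 0.0038) and by 0.68 in trained muscle at 6 h (adjusted p = 0.00875). The other 2 tested genes of this list, Ncam1 and Hdac4, differed from sedentary muscle at 6 h by -0.62 and -0.09 in untrained and by -0.36 and -0.34 in trained muscle, and none of these passed. Runx1, a transcription factor gene under the minimum for a test, had 0.201 to 0.241 TPM in sedentary, 0.772 to 1.60 TPM in untrained and 0.300 to 0.610 TPM in trained muscle at 6 h, above every sedentary library in both arms.

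Markers of other cells moved with some of these comparisons. At 0 h the endothelial marker Kdr was called downward in both arms and the myosin gene Myh1 upward in trained muscle. Without the shared library Kdr was called in neither arm and Myh1 in both. None of the other markers of these lists, which hold 4 endothelial and 7 myofibre genes, was called at 0 h. The means of all 4 endothelial genes lay below the sedentary means in both 0 h groups. Of the 7 myofibre genes only Myh7 had lower means, at 19.0 TPM (untrained) and 36.3 TPM (trained), against a sedentary mean of 52.1 TPM. The 5 macrophage markers summed to 7.62 to 8.61 TPM in sedentary and 10.4 to 19.9 TPM in untrained muscle at 6 h. Of the 4 tested, Cd68 and Csf1r were called upward there. From sedentary to untrained muscle at 6 h the mean rose from 1.29 to 5.06 TPM for Cd68 and from 2.75 to 4.59 for Csf1r. The means in the same order were 1.72 and 2.60 TPM for Cd163, 1.72 and 1.75 for Mrc1 and 0.725 and 0.678 for Adgre1. In trained muscle at 6 h the macrophage sum was 6.14 to 9.05 TPM. None of these markers was called upward there. At 72 h the macrophage sum was 12.5 to 14.9 TPM in untrained and 8.63 to 10.1 TPM in trained muscle. Cd68 was called upward in untrained muscle at 72 h and downward in trained against untrained muscle. The 6 Schwann cell markers summed to 12.5 to 22.3 TPM in sedentary, 10.1 to 10.6 TPM in untrained and 7.54 to 17.3 TPM in trained muscle at 6 h, and of the 2 that were tested none was called. In trained muscle at 6 h Col1a1 and Col3a1, of 4 fibro-adipogenic markers, were called downward. Without the shared library Col3a1 kept this call and Col1a1 lost it. The other markers of this list, Dcn and Pdgfra, were not called. Their trained means at 6 h were 213 and 2.52 TPM, against sedentary means of 207 and 2.77 TPM. The 4 satellite cell markers summed to 2.89 to 3.17 TPM in sedentary muscle and 3.01 to 4.92 TPM in untrained muscle at 6 h. Chodl alone carried the higher sum, with means of 2.09 and 2.93 TPM, while the means of Pax7 were 0.301 and 0.269, those of Myf5 0.537 and 0.420 and those of Megf10 0.0761 and 0.0503 TPM. The 4 motor neuron markers never summed to more than 0.0259 TPM. The part of these cells in the results was not tested.

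Some members share sequence with other transcripts. Exons of Chrna1, Musk, Rapsn and Ache overlap with a gene on the opposite strand in GENCODE M39, and the library kit does not mark strand, so reads of both cannot be told apart. Of these partners Gm13778, opposite Rapsn, had 0.57 to 2.38 TPM in the matrix. Gm30940, Gm68860 and Gm57304, opposite Chrna1, Musk and Ache, had no row in the matrix, so their levels are unknown. Colq overlaps on its own strand with Gm49387, which was listed at 0 in every library.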

How the data were processed

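Bulk RNA of quadriceps was sequenced in 21 libraries, 3 in each of 7 groups taken from the sample labels. The authors aligned paired reads to GRCm39 with STAR 2.7.9 and deposited a gene matrix of TPM values from Salmon 1.5.0 (versions from the submitters' processing notes). Salmon shares reads between similar transcripts by estimate. The deposited TPM sum to 997304 to 997921 per library, so that a rise in abundant transcripts lowers all others, and depth is unknown. Each column matched 1 sample.

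The tests covered genes whose mean reached 1 TPM. All 7 groups entered 1 limma model (limma 3.58.1, R 4.3.3, intensity trend) on log2(TPM + 0.5), two-sided, with Benjamini-Hochberg adjustment within each comparison. The pseudocount shrinks fold changes of low genes. The fit was tested on simulated data. Alternatives were pseudocounts of 0.1 and 1, no minimum level, no fold threshold, rescaling by median of ratios or without mitochondrial genome genes and the 10 highest genes, only the compared groups, a replicate block, no shared library, and leaving out each library.

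All members were named, with up to 4 called genes of each pathway list and the 3 most similar genes of each member that was called or passed the F test, of which 1 is not reported here. The members and lists were chosen with earlier results of these data known. Promoter windows were read from GRCm39 at GENCODE M39 canonical starts.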

Additional observations from a re-analysis of the deposited data

How the results depend on the processing

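Every alternative kept the direction of the calls for Musk, Dok7 and Ache. The number of members called at 0 h in untrained muscle was 0 as reported, 1 with a pseudocount of 0.1, 1 with no fold threshold and 0 to 1 when single libraries were left out, 1 without sedentary replicate 3 (log2 difference 0.61) and 1 without untrained 0 h replicate 2 (0.62), the member being Chrnb1 each time, which lies beside the fold threshold. In trained muscle at 0 h it was 1 with no fold threshold, again Chrnb1. At 6 h in untrained muscle it was 1 (Dok7) with only the compared groups in the model, where fewer libraries estimate the spread, and 3 with no fold threshold, which adds Chrnb1. In trained muscle at 6 h leaving out single libraries gave 2 to 3, and no fold threshold gave 4, again adding Chrnb1. Ache lost its call in trained muscle at 6 h in the 3 alternatives named with it, and the cause was not tested.

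Rescaling without mitochondrial genome genes and the 10 highest genes moved the median of all genes at 0 h from 0.10 and 0.13 to -0.05 and -0.04 on the log2 scale, and between trained and untrained muscle at 72 h from -0.08 to 0.02. Neither this rescaling nor median-of-ratios scaling changed a member's call, while under 1 or both of them signs turned for the small differences of Chrna1, Chrne, Rapsn, Dok7, Lrp4 and Ache in untrained and Lrp4 in trained muscle at 0 h, and of Musk and Ache in untrained muscle at 72 h. Of the 9 members the F test passed 6 as reported, 5 without the shared library and 4 after that rescaling. At 0 h, both scalings and the fit without a minimum level were also run without the shared library, an alternative added after seeing the data, and called 0 members in each comparison.

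Replicate numbers did not pair the samples. Libraries with the same number had correlations of their deviations from -0.12 to 0.13 (median 0.02, 62 pairs). With the replicate number as a block the count of members called stayed 2 in untrained and 3 in trained muscle at 6 h. Depth could not be examined, since TPM holds no counts, and 3 libraries a group limit what can be seen in low genes such as Chrnd.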
